A study of Homo sapiens with 6 samples.

Results

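The ATP-binding cassette (ABC) transporter genes were described in PC9OR lung cancer cells after knockdown of GLMP, the gene of a glycosylated lysosomal membrane protein. The members were all genes of the deposited table whose symbol consists of ABC, a subfamily letter from A to G and a number, which gave 46 of 60664 genes. Pseudogenes and antisense genes with longer symbols did not enter, and 1 member, ABCC13, is itself annotated as a transcribed pseudogene. Of the 46, 30 had 10 or more counts in at least 3 libraries. Bulk RNA sequencing of mRNA libraries was done on 3 libraries labelled si-GLMP, whose genotype label is GLMP knockdown, and 3 labelled NC, whose genotype label is control. All 6 came from the same line, PC9OR, a lung cancer line whose name contains that of PC9, a human lung adenocarcinoma line with an activating EGFR mutation, and the series title places it in resistance to EGFR tyrosine kinase inhibitors. The silencing sequence, its dose and the time of harvest are not given in the labels, and neither is whether the 3 libraries of a group came from separate cultures. The p-values thus rest on the variation among these 6 libraries alone, which could be technical.

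ABC proteins bind and hydrolyse ATP in a pair of nucleotide-binding domains, and most couple this to moving a substrate across a membrane. Subfamily A moves lipids, subfamily B holds the drug exporter P-glycoprotein together with mitochondrial, lysosomal and bile salt transporters, and subfamily C holds the multidrug resistance proteins that export glutathione, glucuronide and sulfate conjugates. Subfamily D serves the peroxisome and the lysosome, and subfamily G exports sterols and drugs. Proteins of subfamilies E and F have no membrane-spanning domains and work on ribosomes. In cancer cells the family is known for drug efflux, and ABCB1, ABCC1 and ABCG2 are the exporters most often tied to multidrug resistance.

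Library totals were 20313899 to 21041277 counts in si-GLMP and 19896875 to 22372878 in NC. GLMP itself had 82, 61 and 65 counts in the si-GLMP libraries, against 309, 344 and 347 in the NC libraries, which is -2.25 ± 0.14 on the log2 scale (SE; edgeR's quasi-likelihood F-test with p adjusted by Benjamini-Hochberg over all tested genes, adjusted p = 1.16e-18). The 7 epithelial markers examined passed 10 counts in 3 libraries, with a summed level of 8797 to 9841 CPM (counts scaled to library size with TMM factors) in si-GLMP and 9441 to 9740 CPM in NC. The leukocyte markers LYZ and TYROBP had 0 counts in every library, and the 5 leukocyte markers together stayed between 0.291 and 0.635 CPM in si-GLMP and between 0.0489 and 0.552 CPM in NC. The hepatocyte markers APOB and TTR had 0 counts throughout. Summed fibroblast markers, mostly COL1A1, lay at 10.4 to 12.02 CPM in si-GLMP and 5.59 to 7.13 CPM in NC, with COL3A1 at 0, and summed endothelial markers at 6.78 to 7.64 and 4.82 to 7.68 CPM. mRNAs encoded by the mitochondrial genome took 5.18% to 5.49% of the counts in si-GLMP and 6.49% to 8.73% in NC, where NC replicate 2 stood apart. The part of the marker levels in the results below was not tested. Without NC replicate 2, 8 of the 9 called ABC genes still passed, and ABCF1 did not.

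Knockdown of GLMP was accompanied by moderate changes in a minority of the family, in both directions. Of 29 members that could be tested, 4 rose, 5 fell and 20 did not pass an edgeR adjusted p under 0.05. ABCA12, ABCC3 and ABCC10 were among those that rose, and ABCE1, ABCC4, ABCB10, ABCA2 and ABCF1 fell. Among all 15900 tested genes 23.3% passed the same threshold (12% higher and 11.3% lower), against 31% of the ABC genes, and nothing particular to the family is read from this. With an absolute log2 fold change over 0.5 also required, 1 member (ABCA12) and 7.88% of all tested genes passed. The median log2 fold change was 0.01 over the 29 members and 0.00 over all tested genes, and the median size of the change, regardless of sign, was 0.15 and 0.18. In 12 of the 29 tested members, 6 in each direction, the si-GLMP and NC libraries had no overlapping CPM values, as had 36.5% of all tested genes. These were the 9 called genes together with ABCC2 and ABCB9, higher in every si-GLMP library, and ABCG2, lower in every si-GLMP library. In bulk RNA a change in the level of a transcript per cell cannot be told apart from a change in the share of cells that carry it.

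**Figure D1:**
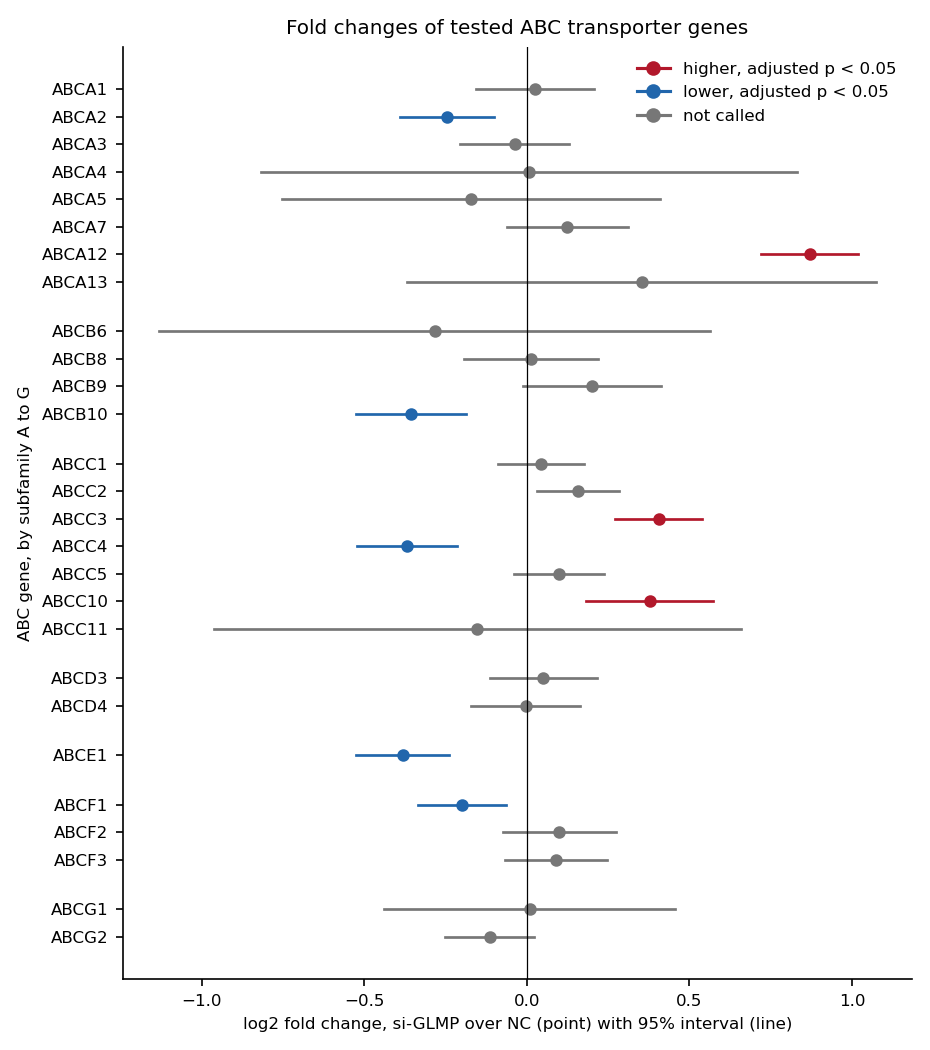
Log2 fold change, si-GLMP over NC, of 27 tested ABC genes on the horizontal axis, with 95% intervals as lines and the genes down the page by subfamily A to G. ABCA12 stands out at 0.87, ABCC3 and ABCC10 lie at 0.41 and 0.38, the 5 called falls lie between -0.38 and -0.20, and the low-count genes ABCA4, ABCA5, ABCA13, ABCB6 and ABCC11 have wide intervals across 0.

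Levels differed far more between members than between the groups. Scaled by TMM and by exonic length, ABCC2 was the highest member, at 52.1 ± 2.36 CPM per kb in si-GLMP and 46.7 ± 1.13 CPM per kb in NC (SD, n = 3 each), and its NC level was at or above that of 94.6% of tested genes. After it in NC came ABCF1 at 32.0, ABCG2 at 23.3, ABCC1 at 22.3, ABCE1 at 19.9 and ABCC3 at 14.2 CPM per kb. ABCA12 took the 11th place of the 30 in NC and the 6th in si-GLMP, at 15.4 ± 1.97 CPM per kb in si-GLMP against 8.44 ± 0.255 CPM per kb in NC. No other called member moved by more than 3 places, and ABCC4 moved furthest of these, with rank 15 in si-GLMP and rank 12 in NC. Summed over the 46 genes, the family had 1935, 1943 and 1998 CPM in the si-GLMP libraries and 1855, 1851 and 1864 CPM in the NC libraries, so the sums did not overlap. This was not a rise shared by all subfamilies. The sums of A and C were higher in every si-GLMP library than in any NC library. Those of B, E, F and G were lower in every si-GLMP library. Such sums can follow a single abundant gene. The A sum had means of 334 CPM in si-GLMP and 280 CPM in NC. ABCA12 alone had means of 145 and 79.5 CPM, a wider gap than that of the A sum. Subfamily E holds only ABCE1. ABCG2, with means of 108 and 117 CPM, made up nearly all of the G sum, with means of 111 and 120 CPM. Subfamily C had the highest sum of the 7 subfamilies, with 937, 929 and 988 CPM in si-GLMP and 862, 857 and 868 CPM in NC.

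**Figure D2:**
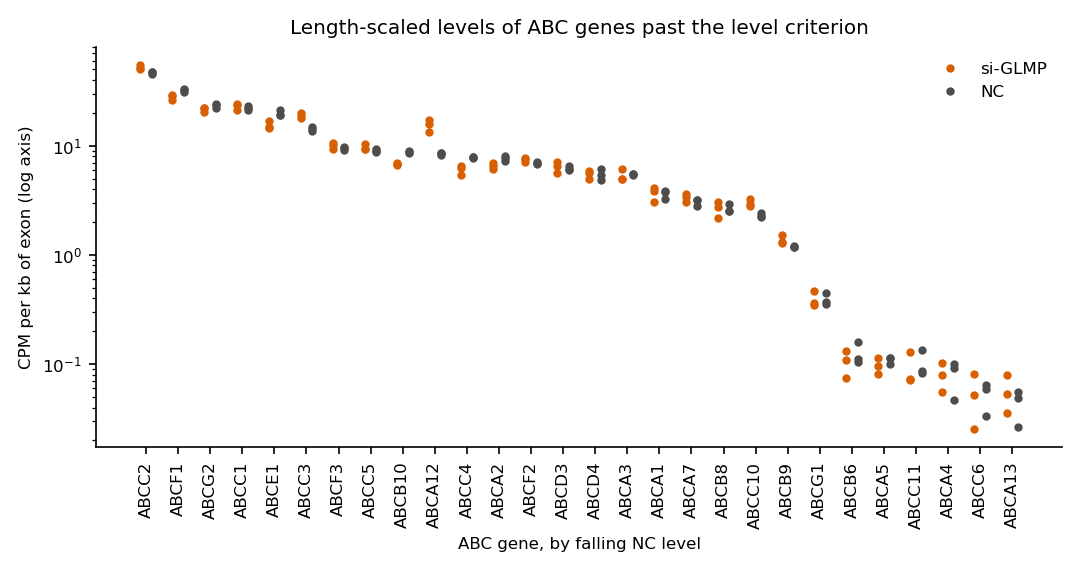
Length-scaled level (TMM-scaled CPM per kb of exon, log axis) of 28 ABC genes with 10 or more counts in 3 libraries, ordered by NC mean, each point 1 library, si-GLMP left of NC for each gene. NC means run from 46.7 CPM per kb for ABCC2 to 0.0436 for ABCA13, and ABCA12 shows the widest gap between the groups.

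Promoter sequence was examined because called members moved in both directions. RefSeq windows on GRCh38.p14, from 250 bases before to 50 after the annotated gene start, were found for 24 of the 30 expressed members, and not for the called gene ABCC3. Those shown are the 2 called rises and the 2 called falls of largest size that had a window. In each, written 5′ to 3′ on the gene's strand, capitals mark a match to any of the motifs searched.
ABCA12 (chr2:215138577-215138876, minus strand): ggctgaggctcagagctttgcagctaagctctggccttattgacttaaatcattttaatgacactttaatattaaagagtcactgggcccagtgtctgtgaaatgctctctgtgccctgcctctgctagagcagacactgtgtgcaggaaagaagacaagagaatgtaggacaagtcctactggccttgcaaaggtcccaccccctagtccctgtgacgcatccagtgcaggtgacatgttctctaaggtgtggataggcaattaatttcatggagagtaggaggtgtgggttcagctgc
ABCC10 (chr6:43427613-43427912, plus strand): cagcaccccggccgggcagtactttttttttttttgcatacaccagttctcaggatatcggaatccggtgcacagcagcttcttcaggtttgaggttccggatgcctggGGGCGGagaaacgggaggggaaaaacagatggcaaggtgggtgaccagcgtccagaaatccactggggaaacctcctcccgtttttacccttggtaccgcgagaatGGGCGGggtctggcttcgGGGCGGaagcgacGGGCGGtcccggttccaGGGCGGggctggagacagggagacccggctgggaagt
ABCE1 (chr4:145098061-145098360, plus strand): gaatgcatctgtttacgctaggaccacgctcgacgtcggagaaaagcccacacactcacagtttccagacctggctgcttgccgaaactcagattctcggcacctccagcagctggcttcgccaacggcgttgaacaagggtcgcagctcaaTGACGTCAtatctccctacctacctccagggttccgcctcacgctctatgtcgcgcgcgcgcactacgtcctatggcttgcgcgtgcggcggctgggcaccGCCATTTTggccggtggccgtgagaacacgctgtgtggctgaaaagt
ABCC4 (chr13:95301402-95301701, minus strand): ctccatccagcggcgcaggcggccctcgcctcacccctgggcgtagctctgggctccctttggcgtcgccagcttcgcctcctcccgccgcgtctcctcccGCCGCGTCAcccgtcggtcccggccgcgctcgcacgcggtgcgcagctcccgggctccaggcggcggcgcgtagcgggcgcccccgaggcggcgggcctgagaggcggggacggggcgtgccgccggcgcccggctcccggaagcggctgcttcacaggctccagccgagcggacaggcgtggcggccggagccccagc

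The ABCA12 window had none of the 11 motifs, each searched on both strands with overlapping matches allowed. It was also poor in CpG dinucleotides, with an observed over expected ratio of 0.0568, where ABCC10 had 0.758, ABCE1 1.06 and ABCC4 0.992 and the median of all 27305 windows was 0.580. Among the 24 ABC windows, 5 had a ratio under 0.3 (ABCA12, ABCA13, ABCC2, ABCC11 and ABCG2), and the lowest of the others was 0.519; of all windows 33.3% were under 0.3. ABCC10 held 5 GC boxes (GGGCGG), a motif present in 15 of the 24 ABC windows and 44.6% of all windows. The GC box was also in the windows of ABCB10 and ABCF1, which fell. ABCC4 held 1 antioxidant response element core (TGACNNNGC, read on the other strand). ABCA2 and ABCF1 held it too, and it was present in 7 of the 24 ABC windows and 13.6% of all windows. The 24 ABC windows belong to expressed members, while the full set was not chosen by expression. Median GC content was 65.5% in the ABC windows and 58.3% in all windows. Nothing particular to the family is read from the motif shares. ABCE1 held a cyclic AMP response element (TGACGTCA; 1.98% of all windows) and a YY1 motif (GCCATNTT; 6.82% of all windows), both added to the search after its sequence had been seen. The DR4 motif of the liver X receptor was in 0 of the 24 and in 0.02% of all windows, and the AP-1 motif TGANTCA in 1 and 7.76%. Of the remaining motifs, CCAAT was in 4 ABC windows (35.7% of all windows), TATAAA in 3 (11.9%), the E-box CACGTG in 3 (7.43%), the TEAD motif GGAATG in 3 (14.1%) and the palindromic NRF1 motif in 0 (1.36%). A match is a description of letters and not of a bound site, and the RefSeq start of ABCA12 lies outside the gene as GENCODE release 29 draws it. The whole ABCG2 window also lies upstream of the gene drawn there, so its low CpG ratio may not describe that start. For ABCC10 and ABCE1 the whole window lies inside the gene as GENCODE release 29 draws it, downstream of the start given there.

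Subfamily A had the largest single change. Of 12 members 8 were tested, of which 1 rose, 1 fell and 6 did not pass. ABCA12 (ENSG00000144452; GRCh38 chromosome 2, 214931542 to 215138428, minus strand) loads glucosylceramide into the lamellar granules of keratinocytes, and its loss causes harlequin ichthyosis. It had 126, 163 and 148 CPM in si-GLMP replicates 1 to 3, against 80.2, 81.4 and 76.8 CPM in NC replicates 1 to 3. Every si-GLMP library lay above every NC library, with a wider spread among the si-GLMP libraries. The log2 fold change was 0.87 ± 0.07 (SE; 95% interval 0.72 to 1.02; edgeR adjusted p = 1.85e-13), an increase of 82.8%. ABCA2 (ENSG00000107331), an endolysosomal lipid transporter best known from the brain, had 79.1, 69.8 and 74.7 CPM in si-GLMP and 93.0, 83.4 and 88.8 CPM in NC. It fell by 0.25 ± 0.07 on the log2 scale (SE; edgeR adjusted p = 0.00864). The groups were separate but only by a few CPM, and without NC replicate 1 the ABCA2 call was lost (log2 fold change -0.21, edgeR adjusted p = 0.104).

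The other 6 tested lipid transporters of subfamily A did not pass, which does not show that their levels were alike. ABCA3, which fills the surfactant bodies of alveolar type II cells, had 38.7, 38.7 and 47.5 CPM in si-GLMP and 43.2, 42.7 and 42.3 CPM in NC, with a log2 fold change of -0.04 (95% interval -0.21 to 0.13). ABCA1, which passes cholesterol to apolipoprotein A-I, had 43.5, 46.6 and 34.9 CPM in si-GLMP and 37.0, 43.3 and 42.6 CPM in NC, with a log2 fold change of 0.02 (95% interval -0.16 to 0.21). ABCA7, a phospholipid transporter and Alzheimer disease risk gene, had 30.5, 28.4 and 25.3 CPM in si-GLMP and 26.7, 23.6 and 26.9 CPM in NC, with 0.13 (95% interval -0.06 to 0.31). For these 3 genes the groups overlapped. ABCA4, the retinal transporter, ABCA5, a transporter of lysosomes and late endosomes, and the very large ABCA13 had means between 0.677 and 1.45 CPM in either group. Their intervals were wide, from -0.82 to 0.83 for ABCA4, -0.75 to 0.41 for ABCA5 and -0.37 to 1.07 for ABCA13. ABCA6 and ABCA8 had 0 counts in every library, which allows up to 3 counts in each, ABCA9 had 4 counts in all and ABCA10 had 31. ABCA5, ABCA6, ABCA8, ABCA9 and ABCA10 lie side by side on chromosome 17, and of this cluster only ABCA5 passed the level criterion.

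Subfamily B was represented by its organelle transporters. Of 9 members 5 were tested, of which 0 rose, 1 fell and 4 did not pass. ABCB10 (ENSG00000135776; chromosome 1, 229516582 to 229558695, minus strand), a transporter of the inner mitochondrial membrane needed for haem synthesis in red cell precursors, had 28.4, 29.2 and 29.02 CPM in si-GLMP and 37.9, 36.2 and 36.9 CPM in NC. The groups were well apart and each was tight. It fell by 0.36 ± 0.08 on the log2 scale (SE; edgeR adjusted p = 0.00101), a change of -21.9%. ABCB8, also a mitochondrial transporter gene, had 28.7, 20.4 and 25.9 CPM in si-GLMP and 23.7, 23.4 and 27.1 CPM in NC, with a log2 fold change of 0.01 (95% interval -0.19 to 0.22).

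ABCB9, the peptide transporter TAPL, is like the GLMP protein found in the lysosome. Its levels were 20.2, 17.0 and 17.3 CPM in si-GLMP and 16.1, 15.7 and 15.6 CPM in NC. Every si-GLMP value exceeded every NC value, but the log2 fold change of 0.20 ± 0.11 did not pass (SE; 95% interval -0.01 to 0.41; edgeR adjusted p = 0.174). Of its exonic length, 24.5% overlaps genes on the opposite strand. Since the strand setting of the counting is not given in the sources used here, reads there cannot be assigned with certainty. The overlapping OGFOD2 had 7 to 19 counts a library and ARL6IP4 1 to 9. These low counts carry the same uncertainty and do not show how much those genes are expressed.

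The drug exporter P-glycoprotein gene ABCB1 was close to undetected. It had 0, 0 and 1 counts in si-GLMP and 1, 2 and 2 counts in NC, at or under the floor of 3 counts, which is 0.133 to 0.151 CPM per library, so no fold is given. Its neighbour ABCB4, the phosphatidylcholine transporter of bile, had 5 counts over the si-GLMP libraries and 3 over the NC libraries, ABCB5 had 0 throughout, and the bile salt pump gene ABCB11 had 6 and 4. ABCB6, a porphyrin transporter, had 14, 12 and 8 counts in si-GLMP and 11, 12 and 19 in NC, with a log2 fold change of -0.28 (95% interval -1.13 to 0.56). In GENCODE release 29, 54.7% of the ABCB6 exonic length is shared with another gene on the same strand, which itself had 3 counts in all. How shared reads were counted is not given in the sources used here, so the low ABCB6 level is uncertain.

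Subfamily C, the multidrug resistance proteins, was the most abundant and moved in both directions. Of 12 members 7 were tested, of which 2 rose, 1 fell and 4 did not pass. ABCC3 (ENSG00000108846; chromosome 17, 50634777 to 50692252, plus strand), which exports glucuronides and bile acids across the basolateral membrane, had 178, 174 and 190 CPM in si-GLMP and 142, 136 and 131 CPM in NC. No library of one group reached the other. The log2 fold change was 0.41 ± 0.07 (SE; edgeR adjusted p = 3.30e-06), an increase of 32.5%. ABCC10 (ENSG00000124574; chromosome 6, 43427366 to 43450430, plus strand), the exporter MRP7 with taxanes among its substrates, had 26.1, 22.8 and 23.7 CPM in si-GLMP and 17.9, 18.3 and 19.6 CPM in NC. It rose by 0.38 ± 0.10 on the log2 scale (SE; edgeR adjusted p = 0.00263), an increase of 29.97%. Under 1% of its exonic length is shared with DLK2 on the opposite strand, itself at -0.58 on the log2 scale (edgeR adjusted p = 0.000246).

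ABCC4 (ENSG00000125257; chromosome 13, 95019829 to 95301475, minus strand) moved the other way. This exporter of cyclic nucleotides, prostaglandins and nucleoside analogue drugs had 53.5, 56.3 and 46.8 CPM in si-GLMP and 68.3, 67.8 and 66.1 CPM in NC. The NC libraries were within a few CPM of each other and all lay above the si-GLMP libraries. ABCC4 fell by 0.37 ± 0.08 on the log2 scale (SE; 95% interval -0.52 to -0.21; edgeR adjusted p = 0.000207), a change of -22.5%.

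ABCC2 (ENSG00000023839), the apical exporter MRP2, had 391, 405 and 428 CPM in si-GLMP and 368, 356 and 374 CPM in NC. Every si-GLMP library was above every NC library, yet the log2 fold change of 0.16 ± 0.06 missed the threshold (SE; 95% interval 0.03 to 0.28; edgeR adjusted p = 0.0624). It passed without si-GLMP replicate 1 (edgeR adjusted p = 0.0320), with upper-quartile scaling (edgeR adjusted p = 0.0479) and by DESeq2 (adjusted p = 0.0351). In the other 10 of 13 alternatives ABCC2 did not pass. Among these, the edgeR adjusted p was 0.168 without NC replicate 1 and 0.234 without si-GLMP replicate 3. ABCC1, which encodes MRP1, had 181, 162 and 179 CPM in si-GLMP and 162, 176 and 169 CPM in NC. The groups overlapped, with a log2 fold change of 0.04 ± 0.07 (SE; 95% interval -0.09 to 0.18; edgeR adjusted p = 0.704). ABCC5, an exporter of cyclic nucleotides and folates, had 106, 107 and 120 CPM in si-GLMP and 103, 101 and 106 CPM in NC, with 0.10 (95% interval -0.04 to 0.24; edgeR adjusted p = 0.330).

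The rest of subfamily C had low counts, at most 20 in a library. ABCC11, the exporter behind the earwax type, had 19, 11 and 11 counts in si-GLMP and 12, 20 and 14 in NC, with a log2 fold change of -0.15 (95% interval -0.96 to 0.66). ABCC6, the gene of pseudoxanthoma elasticum, met the level criterion with 8, 13 and 4 counts in si-GLMP and 5, 10 and 10 in NC, but not the filter of the test. It lies 5854 bases from ABCC1, on the opposite strand, and its pseudogene copies ABCC6P1 and ABCC6P2 had at most 8 counts in a library, so its reads are uncertain. ABCC12 summed to 21 counts over the si-GLMP libraries and 16 over the NC libraries, ABCC9, a sulfonylurea receptor, to 7 and 11, the other sulfonylurea receptor ABCC8 to 0 and 1, and ABCC13 to 0 in both.

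**Figure D3:**
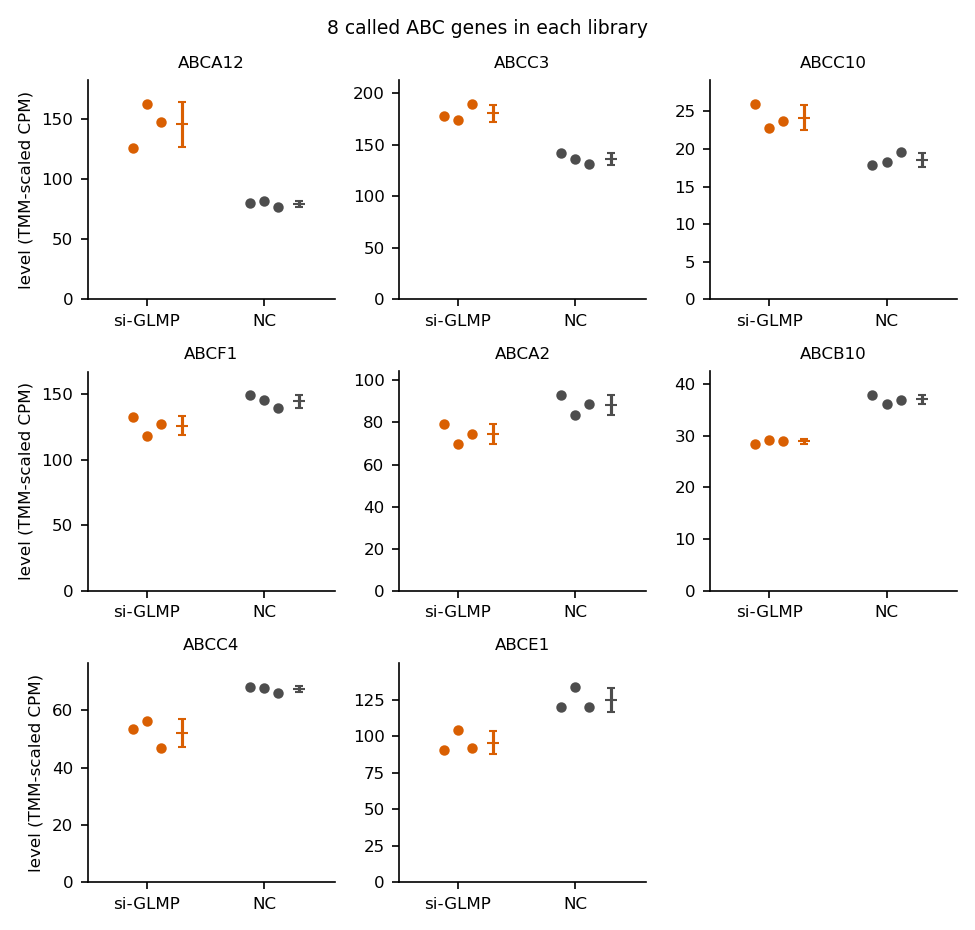
Levels (TMM-scaled CPM, linear axes from 0) of 8 called ABC genes, si-GLMP left and NC right, each point 1 library and the bar beside it the mean ± SD of 3. ABCA12, ABCC3 and ABCC10 lie higher in all 3 si-GLMP libraries, and ABCF1, ABCA2, ABCB10, ABCC4 and ABCE1 lie lower.

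In subfamily D, ABCD3 and ABCD4 showed no called change. ABCD3, which imports branched fatty acids and bile acid precursors, had 43.1, 54.1 and 49.0 CPM in si-GLMP and 49.4, 45.6 and 46.2 CPM in NC, a log2 fold change of 0.05 (95% interval -0.11 to 0.22). ABCD4, which brings cobalamin out of the lysosome, had 51.7, 43.6 and 49.2 CPM in si-GLMP and 47.7, 42.9 and 54.1 CPM in NC, a log2 fold change of -0.00 (95% interval -0.17 to 0.16). The groups overlapped for both genes. ABCD2, a further peroxisomal transporter gene, had 2 counts over the si-GLMP libraries and 0 over the NC libraries.

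Among the ribosome-bound subfamilies E and F, ABCE1 and ABCF1 fell and ABCF2 and ABCF3 did not pass. ABCE1 (ENSG00000164163; chromosome 4, 145097932 to 145129179, plus strand) splits the ribosome into subunits after termination. It had 90.2, 105 and 92.2 CPM in si-GLMP and 120, 134 and 120 CPM in NC, so the groups were apart although each had 1 library, numbered 2 in both, above its fellows. The log2 fold change of -0.38 ± 0.07 was the largest fall in the family (SE; edgeR adjusted p = 3.52e-05), at -23.3%. Of its exonic length 11.9% overlaps opposite-strand genes, of which OTUD4 was at -0.00 on the log2 scale (edgeR adjusted p = 0.982) and ANAPC10 at 0.57 (edgeR adjusted p = 0.116). ABCF1 (ENSG00000204574), a partner of the initiation factor eIF2, had 133, 118 and 128 CPM in si-GLMP and 150, 146 and 140 CPM in NC. It fell by 0.20 ± 0.07 on the log2 scale (SE; edgeR adjusted p = 0.0241). That call was lost without NC replicate 1 (edgeR adjusted p = 0.161), NC replicate 2 (0.0501), si-GLMP replicate 2 (0.0832) or si-GLMP replicate 3 (0.0750), and with no filter on low counts (0.0574).

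The remaining F genes lay slightly higher, without a call. ABCF2 had 29.4, 31.7 and 32.3 CPM in si-GLMP and 29.3, 28.3 and 29.6 CPM in NC, a log2 fold change of 0.10 (95% interval -0.07 to 0.27). In the annotation 45.8% of the ABCF2 exonic length is shared with the same-strand gene named ABCF2-H2BE1 in the table, which had 0 counts in every library. As for ABCB6, how shared reads were counted is not given in the sources used here, so the ABCF2 level is uncertain. ABCF3, related to a yeast activator of the amino acid starvation kinase, had 55.3, 49.0 and 52.8 CPM in si-GLMP and 50.3, 47.3 and 50.01 CPM in NC, a log2 fold change of 0.09 (95% interval -0.07 to 0.25).

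In subfamily G, 2 of 5 members were tested and 0 were called. ABCG2 (ENSG00000118777), the breast cancer resistance protein, exports many tyrosine kinase inhibitors. It had 103, 111 and 111 CPM in si-GLMP and 113, 119 and 121 CPM in NC. The si-GLMP libraries were all slightly lower, with a log2 fold change of -0.11 ± 0.07 (SE; 95% interval -0.25 to 0.02; edgeR adjusted p = 0.237). ABCG1, which exports cholesterol to high density lipoprotein, had 2.88, 2.22 and 2.13 CPM in si-GLMP and 2.26, 2.15 and 2.75 CPM in NC, a log2 fold change of 0.01 (95% interval -0.44 to 0.46). The plant sterol exporters ABCG5 and ABCG8, which share a locus on chromosome 2, summed to 7 and 12 counts over the si-GLMP libraries and to 6 and 7 over the NC libraries. ABCG4 summed to 6 counts in si-GLMP and 3 in NC.

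Set side by side, ABCB1, ABCC1, ABCC2 and ABCG2, the exporters most often named in drug resistance, had no called change. The 95% interval of the log2 fold change reached up to 0.18 for ABCC1, down to -0.25 for ABCG2 and up to 0.28 for ABCC2, whose interval left out 0, and ABCB1 was too low to be measured. A missed threshold does not show that these genes were unaffected. The called changes in subfamily C fell on ABCC3, ABCC10 and ABCC4.

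**Figure D4:**
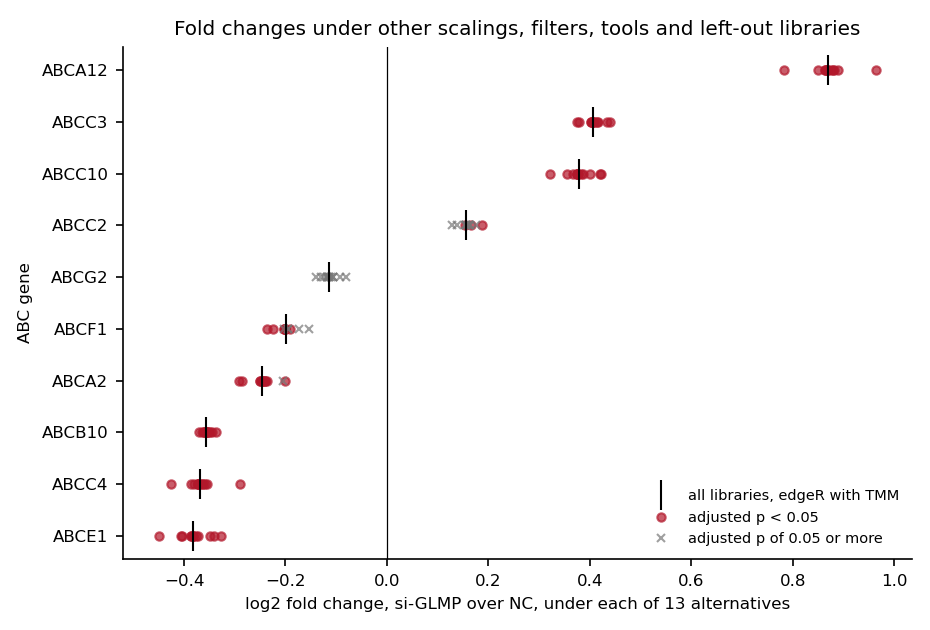
Log2 fold change, si-GLMP over NC, of 8 called ABC genes and of ABCC2 and ABCG2 under 13 alternatives (other scalings, filters, tools, a replicate block and each library left out); the black bar is the value with all libraries, filled points pass an adjusted p under 0.05 and crosses do not. ABCA12, ABCC3, ABCC10, ABCB10, ABCC4 and ABCE1 pass in all 13, while ABCA2, ABCF1 and ABCC2 change sides.

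Of 88 tested genes on 8 lists of family relatives, regulators, partners and other carriers, 23 were called (26.1%), close to the 23.3% of all tested genes, so the counts by list are given as a description and nothing particular to any list is read from them. Of the 3 family genes with other symbols, named here after their values were seen, the antigen peptide transporter genes TAP1 and TAP2 did not pass, at 0.19 (edgeR adjusted p = 0.278) and 0.00 on the log2 scale (edgeR adjusted p = 0.986), and the chloride channel gene CFTR had 1 count in all. Of 13 tested nuclear receptors and factors that control ABC genes, 2 rose, 2 fell and 9 did not pass, with a median log2 fold change of 0.11. NR1H2, which encodes liver X receptor beta, rose by 0.30 (edgeR adjusted p = 0.00253), and SREBF2, the sterol-response factor, fell by 0.29 (edgeR adjusted p = 0.000941). The dioxin receptor gene AHR had 0.33 (edgeR adjusted p = 0.0142), lost without NC replicate 1 (0.0646) or si-GLMP replicate 2 (0.0918). SREBF1, a factor of fatty acid synthesis, had -0.21 (edgeR adjusted p = 0.0234), lost without NC replicate 1 (0.0562), NC replicate 3 (0.160) or si-GLMP replicate 3 (0.251, where its log2 fold change was -0.14).

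Of 13 tested cholesterol handling genes outside the family, 3 rose, 3 fell and 7 did not pass, with a median log2 fold change of -0.13. NCEH1, a cholesteryl ester hydrolase, had 173, 202 and 186 CPM in si-GLMP and 96.4, 109 and 101 CPM in NC, and rose by 0.88 ± 0.07 on the log2 scale (SE; edgeR adjusted p = 4.91e-15). SOAT1, which makes cholesteryl esters, had 33.8, 34.2 and 35.2 CPM in si-GLMP and 46.9, 51.9 and 52.0 CPM in NC, and fell by 0.55 ± 0.08 (SE; edgeR adjusted p = 4.05e-07). The lysosomal cholesterol exporter NPC1 rose by 0.28 (edgeR adjusted p = 0.00241). OSBP, an oxysterol-binding protein gene, had -0.23 (edgeR adjusted p = 0.0101), lost without NC replicate 1 (0.0893) or si-GLMP replicate 3 (0.0617).

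Of 13 tested partners of subfamily D, 3 rose, 2 fell and 8 did not pass, with a median of 0.09. PEX19, the chaperone that brings ABCD proteins to the peroxisome membrane, had 14.2, 14.4 and 14.3 CPM in si-GLMP and 26.3, 27.4 and 30.2 CPM in NC. All si-GLMP libraries were far below the NC libraries, and PEX19 fell by 0.97 ± 0.10 on the log2 scale (SE; edgeR adjusted p = 2.39e-11). ACSL3, an acyl-CoA synthetase gene, fell by 0.42 (edgeR adjusted p = 1.25e-06). PEX16, a peroxisome biogenesis gene, had 0.27 (edgeR adjusted p = 0.0286) but 0.15 without NC replicate 2 (adjusted p = 0.279); its call was also lost without si-GLMP replicate 1 (0.0970) or 3 (0.0760) and by DESeq2 (0.0681). ACAA1, the peroxisomal thiolase, had 0.25 (edgeR adjusted p = 0.0417) and passed in only 6 of 13 alternatives, with adjusted p of 0.0560, 0.184 and 0.0731 without NC replicates 1 to 3 and 0.135 and 0.149 without si-GLMP replicates 1 and 3.

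Of 13 tested ribosome recycling and initiation partners of subfamilies E and F, 2 rose, 2 fell and 9 did not pass, with a median of -0.04. EIF2AK4, the amino acid starvation kinase gene, fell by 0.33 (edgeR adjusted p = 0.000657). EIF3J, a further recycling factor, had 0.26 (edgeR adjusted p = 0.00448) but 0.15 without si-GLMP replicate 2 (adjusted p = 0.0770). PELO, a rescue factor that works with ABCE1, had 0.26 (edgeR adjusted p = 0.0111), lost without NC replicate 2 (0.0550). ETF1, the release factor, had -0.22 (edgeR adjusted p = 0.0103), lost without NC replicate 1 (0.0540), NC replicate 3 (0.0781) or si-GLMP replicate 3 (0.128).

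Of 19 tested drug carriers outside the family, 1 rose, 3 fell and 15 did not pass, with a median of 0.05. MVP, the major vault protein, had 148, 136 and 142 CPM in si-GLMP and 112, 109 and 109 CPM in NC, and rose by 0.37 ± 0.07 on the log2 scale (SE; edgeR adjusted p = 2.03e-05). The carnitine carrier SLC22A5 had -0.28 (edgeR adjusted p = 0.0309) and the copper and platinum carrier SLC31A1 -0.23 (edgeR adjusted p = 0.0405). Neither call held with each library left out in turn. For SLC22A5 the edgeR adjusted p was 0.131 and 0.0744 without NC replicates 2 and 3, and 0.0889 and 0.120 without si-GLMP replicates 1 and 2. For SLC31A1 it was 0.245 and 0.0790 without NC replicates 1 and 3, and 0.115, 0.0544 and 0.0726 without si-GLMP replicates 1 to 3. Of 15 mitochondrial haem and iron-sulfur genes that work beside ABCB10, 0 passed in either direction, with a median of 0.04. The 2 potassium channel partners of the sulfonylurea receptors were too low to test.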

How the data were processed

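The authors deposited whole-number read counts per gene, with no normalization. Per the submitters' processing notes, HISAT2 and the GRCh38 build were used. How reads were counted, the annotation release and the use of strand are not given in the sources at hand. All 6 count columns were matched to samples by title, and 0 were left over. The tests used edgeR 4.0.16 (R 4.3.3): filterByExpr with a minimum count of 10, TMM scaling, robust quasi-likelihood fits over all 15900 tested genes with the group as the only term, and Benjamini-Hochberg adjustment with a threshold of 0.05. Each SE is the absolute log2 fold change over the root of its F statistic. Lengths, positions and overlaps came from GENCODE release 29 on GRCh38, which held all 46 members. Alternatives used RLE and upper-quartile scaling, other filters, left-out libraries, a replicate block, DESeq2 1.42.0 and limma 3.58.1 (voom). In data simulated for this comparison with 15638 genes, 25 of 50 changes of 1.3-fold, 38 of 1.5-fold and 44 of 2-fold were recovered. Every simulated gene had the same variation between libraries beyond counting error, 7%. The fitted median in the measured libraries was 7.94%, so these counts may overstate recovery here. The members, the lists and the rule for named genes (every expressed member by subfamily, values by library for called members, for ABCB1, ABCC1, ABCC2 and ABCG2 and for up to 3 of the most abundant others a subfamily, and up to 4 called genes a list by smallest p) were chosen with earlier results of these data known. The count floor covers counting error only, and with no molecular identifiers given, reads may include PCR copies. Within groups, no 2 libraries were identical. Some genes counted in the totals are not reported here by name or value.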

Additional observations from a re-analysis of the deposited data

How the results depend on the processing

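Across RLE and upper-quartile scaling, no filter, a filter of 1 CPM in 3 libraries, DESeq2 and limma-voom, 4 or 5 ABC genes were called higher and 4 or 5 lower, and 8 or 9 of the 9 called genes were shared. With each library left out the counts ran from 4 to 5 higher and from 3 to 5 lower; the 3 came without NC replicate 1, where ABCA2 and ABCF1 were lost. With an absolute log2 fold change over 0.5 also required, 1 was higher (ABCA12) and 0 lower. No fold change of a called gene turned in sign. Over the table, 3712 genes were called with all libraries and 2804 to 3448 with a library left out. The GLMP log2 fold change ran from -2.40 to -2.15 with a library left out. Same-numbered libraries of the groups deviated together only weakly (correlations of 0.04, 0.03 and 0.00), 2 of the 3 numbers matched best with themselves, and the numbers were not taken as pairs. With the replicate number as a block, 3972 genes were called, 4 ABC genes higher and 5 lower, all 9 shared. Members with 10 or more counts in all 6 libraries numbered 27, against 30. DESeq2 gave an adjusted p for 26 of the 29 members. At levels under 2 CPM, intervals span more than 0.5 on the log2 scale, so moderate changes were not detectable there.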
